A study of Sus scrofa with 26 samples.

Results

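The transcripts of the tricarboxylic acid (TCA) cycle enzymes were followed in the subcutaneous adipose tissue (SCAT) of pigs under heat stress. The members were citrate synthase (CS), the 3 subunits of the NAD-dependent isocitrate dehydrogenase (IDH3A, IDH3B and IDH3G), the succinyltransferase of the 2-oxoglutarate dehydrogenase complex (DLST), the ligase subunits SUCLA2 and SUCLG1, fumarate hydratase (FH) and mitochondrial malate dehydrogenase (MDH2). They were found as every non-control probe whose gene name, accession or description named one of these 9 genes. This gave 32 of the 60305 probes of the array. The only probe labelled FH had conflicting names in the files and was left out of all results and counts. That left 8 of the 9 genes, among 10156 named genes with a tested probe, and 31 probes, all among the 44703 probes tested.

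RNA from 26 castrated male pigs was hybridised to 26 one-colour arrays, 1 animal per array. The animals were Creole, Large White (LW) or their cross (F1). Those of the thermoneutral groups (TN) are labelled 24 °C and those of the heat stress groups (HS) 30 °C, while the design text speaks of 32 °C during 5 days. There were 3 Creole TN, 5 Creole HS, 4 F1 TN, 5 F1 HS, 4 LW TN and 5 LW HS arrays. Pigs entered the climatic room at 11 weeks of age, per the study's methods, and TN animals were slaughtered before the temperature was raised. Temperature, day of slaughter and age at slaughter can therefore not be told apart in any HS to TN comparison. Per the methods the study included littermates, housed pigs of a breed in shared pens and slaughtered each temperature group on more than 1 day. Its own model held terms for pen, slaughter and parents. The labels do not tie arrays to any of these, so none could enter the fit, and animals were treated as independent. With so few arrays per group, precision is limited throughout.

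The TCA cycle takes up acetyl groups made from glucose, fatty acids and amino acids in the mitochondrial matrix and passes their electrons to the respiratory chain. Citrate synthase starts it by joining acetyl-CoA and oxaloacetate, and malate dehydrogenase closes it by remaking oxaloacetate. In white adipose tissue, citrate that leaves the mitochondrion also provides the carbon for fatty acid synthesis. Cycle enzymes are present in nearly every cell type. In such bulk tissue, fewer cells of a type and less RNA per cell cannot be told apart. Of the adipocyte markers, 7 of 8 were tested, each by its brightest probe, with ADIPOQ (adiponectin) 0.16 higher on the log2 scale in HS (adjusted p = 0.038) and the other 6 not called. Dimmer probes did not all follow, since 2 of the 8 FABP4 probes (down to -0.49) and 1 of the 3 PLIN1 probes were called lower. The ADIPOQ call was lost without any of 12 single arrays.

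The probe sequences decided which genes could be read, so those that matter are printed here 5′ to 3′ as the scanner files hold them. The first pair concerns IDH3A. Its 2 brightest probes overlap a probe labelled TBC1D2B, a gene 60432 bases further along the same chromosome with 2 genes between, and the capitals mark the 41 bases shared by the brightest IDH3A probe and that probe. The third sequence is an IDH3A probe of its own, with no stretch in common with the TBC1D2B probe.
IDH3A brightest probe: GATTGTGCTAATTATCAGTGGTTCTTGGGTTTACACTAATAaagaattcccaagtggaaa
TBC1D2B-labelled probe: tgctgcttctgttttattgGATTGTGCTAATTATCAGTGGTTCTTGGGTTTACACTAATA
IDH3A other probe: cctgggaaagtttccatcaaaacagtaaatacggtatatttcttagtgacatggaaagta

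The TBC1D2B-labelled probe correlated at r = 0.96 and 0.97 with the 2 bright IDH3A probes and at r = 0.16 to 0.20 with the 4 other IDH3A probes. Which of the transcripts the bright probes report was therefore not settled here, and both sets are given below. The next sequences are the brightest probes of the members whose change was called without such a conflict, and both probes of SUCLA2, which differed from each other between breeds.
CS: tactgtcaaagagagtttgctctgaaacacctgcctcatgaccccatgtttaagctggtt
MDH2: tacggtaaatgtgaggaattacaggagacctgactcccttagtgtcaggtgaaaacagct
SUCLG1: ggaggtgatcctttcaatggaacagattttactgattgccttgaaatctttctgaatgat
SUCLA2 brightest probe: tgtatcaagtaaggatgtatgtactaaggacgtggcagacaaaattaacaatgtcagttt
SUCLA2 other probe: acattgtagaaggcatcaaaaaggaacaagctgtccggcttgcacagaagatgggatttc

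In the RefSeq gene table of the pig assembly Sscrofa11.1, CS lies on chromosome 5 (21669778 to 21700737), IDH3A on chromosome 7 (47759436 to 47778948) and IDH3B on chromosome 17 (32955061 to 32960110). IDH3G lies on chromosome X (124528643 to 124537570), DLST on chromosome 7 (98091161 to 98111267) and SUCLA2 on chromosome 11 (19616415 to 19670667). SUCLG1 (60142340 to 60177497) and MDH2 (10120121 to 10132705) both lie on chromosome 3. The bounds of CS, IDH3A, IDH3B, IDH3G and MDH2 overlap those of a neighbouring gene in this table. The probes were not placed on the genome here, so exon and untranslated parts are not assigned.

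All 8 genes had lower estimates in HS than in TN, and 4 of them fell past the threshold by their brightest probe: CS, MDH2, SUCLG1 and IDH3A. The IDH3A call rests on a probe that overlaps the TBC1D2B-labelled one. By an IDH3A probe without that overlap the change was -0.20 (adjusted p = 0.16) and not called. IDH3G is counted by its label only, since its single probe is placed on the opposite strand (below). With a score of red blood cell markers as a covariate, 0 of the 8 were called. With a fibroblast score 1 was called, CS, and with scaling to the 75th percentile 7 were. These fits are described below. The changes were modest. The median of the 8 HS minus TN differences was -0.28 on the log2 scale, with a range from -0.50 for MDH2 to -0.13 for IDH3G, against a median of 0.0024 over all probes tested. Among all 44703 probes, 7.02% were called lower at an adjusted p under 0.05 and 5.18% higher. Of the 31 member probes, 20 were called lower and none higher, and all 31 had negative estimates, as had 49.3% of all probes. Several probes of a gene share bases (the 31 hold 29 different sequences), so they are repeated readings of 8 transcripts and not independent ones.

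**Figure D1:**
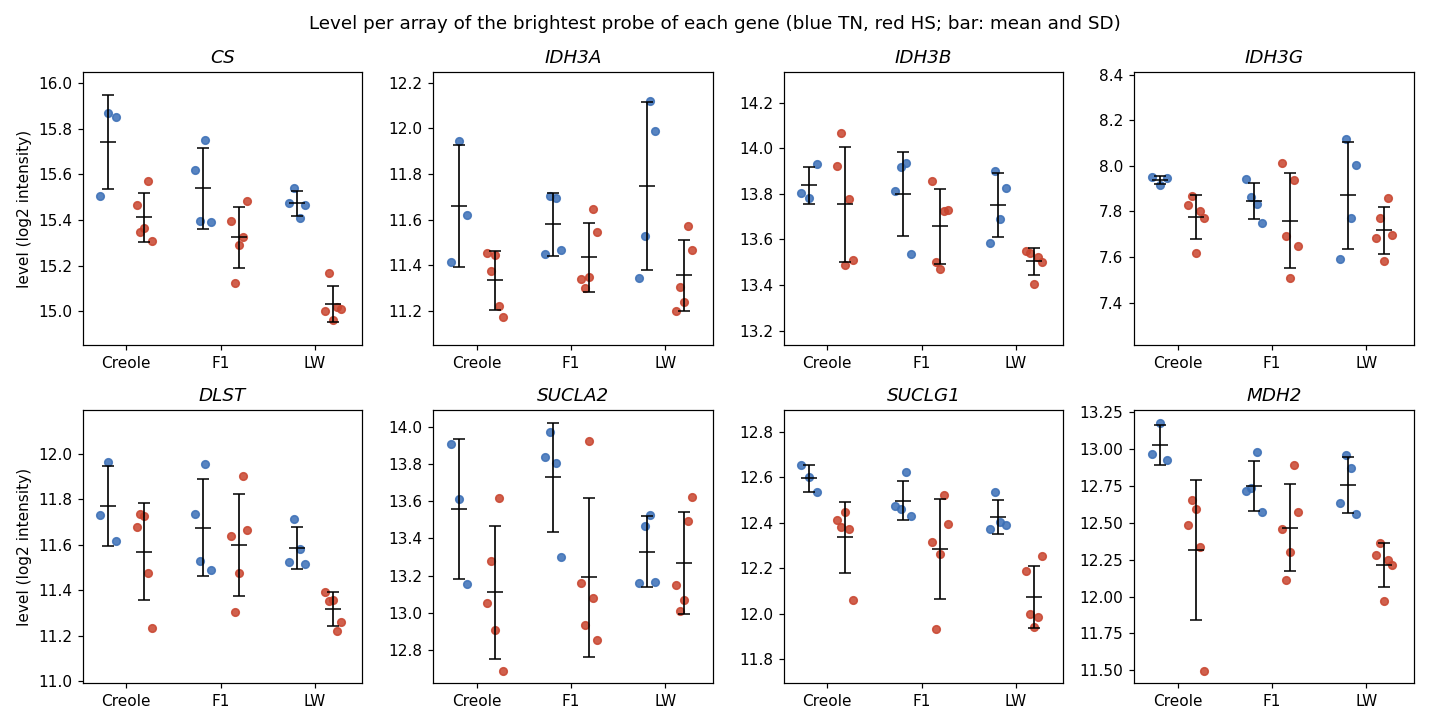
Level of the brightest probe of each gene (log2 of the quantile-normalized intensity, y axis) in every array, by breed (x axis), with TN in blue, HS in red and the mean and SD as black bars. The HS arrays of LW lie below every TN array of LW for CS, DLST, IDH3B, MDH2 and SUCLG1 (5 genes, against 5.02% of all probes) and those of Creole for IDH3G, MDH2 and SUCLG1 (3 genes, against 3.51%), whereas the points of F1 overlap in all 8 genes (3.73% of all probes are separate there). IDH3G is shown by its label only, since its probe is placed on the opposite strand.

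CS, the entry enzyme of the cycle, fell by a like amount on all of its probes. In Creole the log2 levels were 15.51, 15.85 and 15.87 in the TN arrays and 15.31, 15.35, 15.36, 15.47 and 15.57 in the HS arrays. In F1 they were 15.39, 15.40, 15.62 and 15.75 in TN and 15.12, 15.29, 15.32, 15.40 and 15.48 in HS. In LW they were 15.41, 15.47, 15.48 and 15.54 in TN and 14.96, 15.00, 15.01, 15.02 and 15.17 in HS. The groups were separate in LW and overlapped in Creole and F1. Of all probes, 5.02% had every HS array below every TN array in LW, 3.51% in Creole and 3.73% in F1. Each of the 15 HS arrays lay under the TN mean of its breed. CS fell by 0.33 on the log2 scale (SE 0.053, adjusted p = 0.00046), so that the fitted intensity decreased by 20.4%. Its 8 probes all fell, from -0.31 to -0.42, with adjusted p from 0.00034 to 0.00098.

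MDH2, which oxidises malate to oxaloacetate at the end of the cycle, had the largest estimate. In Creole the TN arrays gave 12.93, 12.97 and 13.18 and the HS arrays 11.50, 12.34, 12.49, 12.60 and 12.66. In F1 the TN arrays gave 12.57, 12.72, 12.74 and 12.98 and the HS arrays 12.11, 12.30, 12.46, 12.57 and 12.89. In LW the TN arrays gave 12.56, 12.63, 12.87 and 12.96 and the HS arrays 11.97, 12.22, 12.25, 12.28 and 12.36. All HS arrays lay under all TN arrays in Creole and LW and not in F1, and 1 Creole HS array (replicate 5) stood far below the other 4. MDH2 fell by 0.50 (SE 0.107, adjusted p = 0.0036), and by 0.44 (adjusted p = 0.0010) without that array. Of its 5 probes, the 4 brighter ones fell by 0.49 to 0.53, whereas a dim one, well above background on 8 arrays only and named through its description, gave -0.10 (adjusted p = 0.27).

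SUCLG1 encodes the alpha subunit that both succinyl-CoA ligases share, and SUCLA2 the beta subunit of the ATP-forming one. For SUCLG1, Creole gave 12.53, 12.60 and 12.65 in TN and 12.06, 12.37, 12.38, 12.41 and 12.45 in HS. In F1 the TN arrays had 12.43, 12.46, 12.47 and 12.62 and the HS arrays 11.93, 12.26, 12.32, 12.39 and 12.52. In LW the TN arrays had 12.37, 12.39, 12.40 and 12.54 and the HS arrays 11.94, 11.99, 12.00, 12.19 and 12.25. The groups were again separate in Creole and LW and overlapped in F1. SUCLG1 fell by 0.27 (SE 0.057, adjusted p = 0.0028), and its second probe, which is dim and well above background on 18 of the 26 arrays only, gave -0.31 (adjusted p = 0.019). Creole TN replicate 1 stood high for this dim probe, at 6.97 against a Creole median of 5.97, and without it the change was -0.22 (adjusted p = 0.019).

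SUCLA2 varied more between animals of a group. Its brightest probe ranged from 13.16 to 13.97 (median 13.52) in the 11 TN arrays and from 12.69 to 13.92 (median 13.08) in the 15 HS arrays, so the temperatures overlapped widely. The difference was -0.34 (SE 0.127, adjusted p = 0.075) and did not pass the threshold, whereas the second probe fell by 0.41 (SE 0.113, adjusted p = 0.019). The 2 probes correlated at r = 0.87 over 26 arrays. One F1 HS array (replicate 3) had 13.92 against 12.85 to 13.16 in the other 4, and without it the brightest probe gave -0.40 (adjusted p = 0.033).

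IDH3A encodes the catalytic alpha subunit of the mitochondrial isocitrate dehydrogenase, and IDH3B and IDH3G its other subunits. For the brightest IDH3A probe, Creole had 11.41, 11.62 and 11.95 in TN and 11.17, 11.22, 11.38, 11.44 and 11.45 in HS. F1 had 11.45, 11.47, 11.70 and 11.70 in TN and 11.30, 11.34, 11.35, 11.54 and 11.65 in HS. LW had 11.34, 11.53, 11.99 and 12.12 in TN and 11.20, 11.24, 11.30, 11.46 and 11.57 in HS. The temperatures overlapped in each breed, by 1 TN array or more. This probe fell by 0.29 (SE 0.080, adjusted p = 0.021) and the second bright probe by 0.27 (adjusted p = 0.021), and the TBC1D2B-labelled probe that shares their bases gave -0.24 (SE 0.080, adjusted p = 0.051). The 4 other IDH3A probes gave -0.17 to -0.22 with adjusted p from 0.16 to 0.28. Where the brightest of these 4 stands for IDH3A, the called genes number 3 of 8.

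For IDH3B the brightest probe gave -0.16 (SE 0.064, adjusted p = 0.10), with levels from 13.53 to 13.93 in TN and from 13.40 to 14.07 in HS. Its 3 other probes fell by 0.20 to 0.22 (adjusted p from 0.037 to 0.0495). IDH3G was read by a single probe at a low level, from 7.59 to 8.12 in TN and from 7.51 to 8.01 in HS, with a difference of -0.13 (SE 0.059, adjusted p = 0.15). The annotation that accompanies the study places the match of this probe on the strand opposite to IDH3G. A probe so placed does not read the IDH3G transcript itself. IDH3G is therefore counted among the 8 genes by its label only, and its value cannot be taken as a measure of the gene. DLST, the core succinyltransferase that passes the succinyl group to coenzyme A, had 3 probes with -0.14 to -0.18 and adjusted p from 0.088 to 0.23, none past the threshold.

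**Figure D2:**
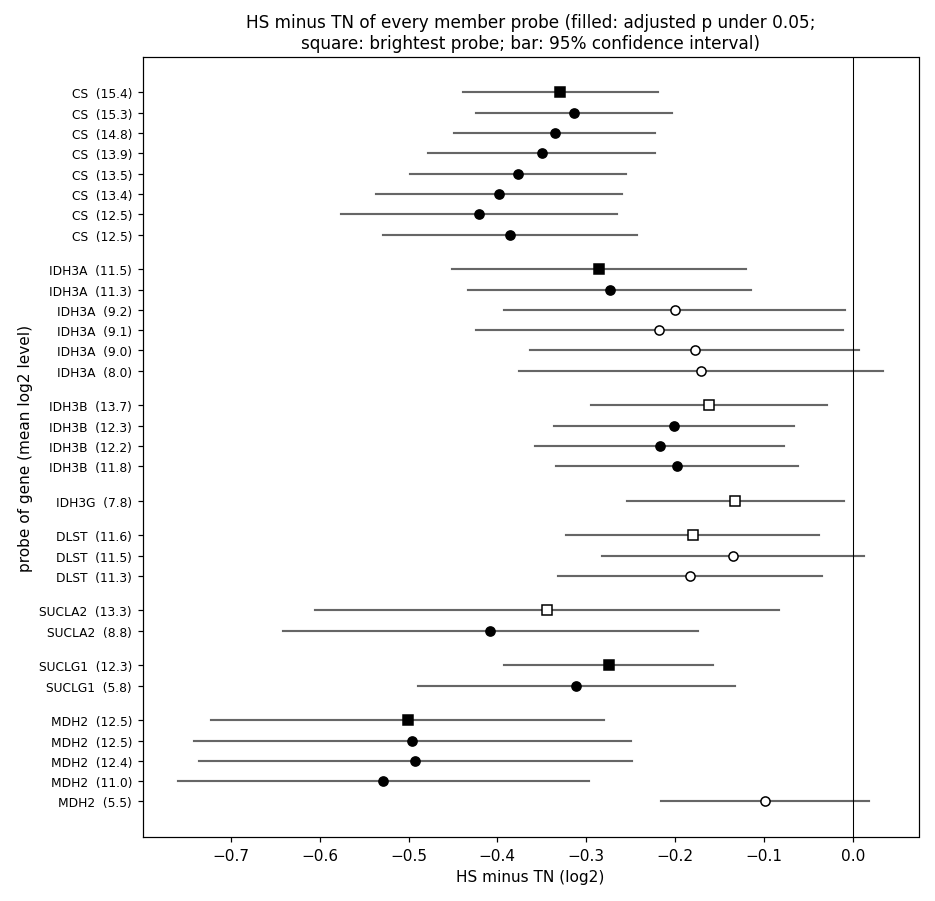
HS minus TN difference (log2, x axis) of each of the 31 member probes with its 95% confidence interval, ordered within a gene by mean level (given in brackets, y axis). Filled symbols have an adjusted p under 0.05 and squares mark the brightest probe. All 31 estimates lie left of zero, and the 8 CS probes and the 4 brighter MDH2 probes are all filled.

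Subunits of 1 enzyme were set against each other within the same arrays. The HS minus TN difference of IDH3A minus IDH3B was -0.12 (95% confidence interval -0.31 to 0.066) and that of IDH3A minus IDH3G was -0.15 (-0.34 to 0.033). It was -0.029 for IDH3B minus IDH3G (-0.13 to 0.075) and -0.070 for SUCLA2 minus SUCLG1 (-0.35 to 0.21). None passed a two-sided exact permutation test of temperature within breeds (adjusted p from 0.38 to 0.60 over the 4 pairs). Both IDH3A values rest on the bright probe that overlaps the TBC1D2B-labelled one. With the IDH3A probe that shares no sequence with it they were -0.039 and -0.068 (both adjusted p = 0.74), and with the mean of all probes of each gene -0.026 and -0.089. With arrays scaled to the 75th percentile, IDH3A minus IDH3G was -0.24 and IDH3B minus IDH3G -0.15 (both adjusted p = 0.079). IDH3A minus IDH3B was then -0.087 and SUCLA2 minus SUCLG1 -0.082. An unequal change of subunits was not detected, and the intervals leave room for differences of up to about the size of the changes themselves. For IDH3G the question could not be put, since its probe may not read the gene.

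Within breeds, all 8 estimates were negative in each of the 3 breeds, and 9837 (22%) of all probes had negative estimates in all 3. Only 1 of the 8 genes passed the threshold in a single breed. In LW, CS fell by 0.44 (SE 0.087, adjusted p = 0.015), and 7 of its 8 probes were called, against 1.11% of all probes called lower in that breed. Leaving out single arrays of any breed moved this count, to 0 without LW TN replicate 2, to 2 without LW HS replicate 5 or F1 HS replicate 2 and to 3 without Creole HS replicate 5. In Creole none of the 8 was called (0.0447% of all probes were called lower), with -0.33 for CS (adjusted p = 0.19) and -0.71 for MDH2 (adjusted p = 0.17). In F1 none was called either (0.309% called lower), with -0.22 for CS (adjusted p = 0.22) and -0.54 for SUCLA2 (adjusted p = 0.21). At an unadjusted p under 0.05, limma gave 4 of the 8 genes in Creole, 3 in F1 and 6 in LW, against 11.1%, 15.9% and 16.7% of all probes. Only 3 to 5 arrays stand on each side of these contrasts.

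The breeds were not shown to differ in their change. No member passed the test of the breed by temperature interaction (smallest adjusted p = 0.90), and 0 of the 8 genes and 1 of the 31 probes had an unadjusted p under 0.05 in limma. Over all probes 1 was called (0.00224%) and 5.23% had an unadjusted p under 0.05. For the brightest SUCLA2 probe the estimates were -0.45 (Creole), -0.54 (F1) and -0.062 (LW), and this gene also gave no call in that test (adjusted p = 0.90). The other SUCLA2 probe gave -0.36 (Creole), -0.60 (F1) and -0.25 (LW), so the small change in LW was not shared by both probes.

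**Figure D3:**
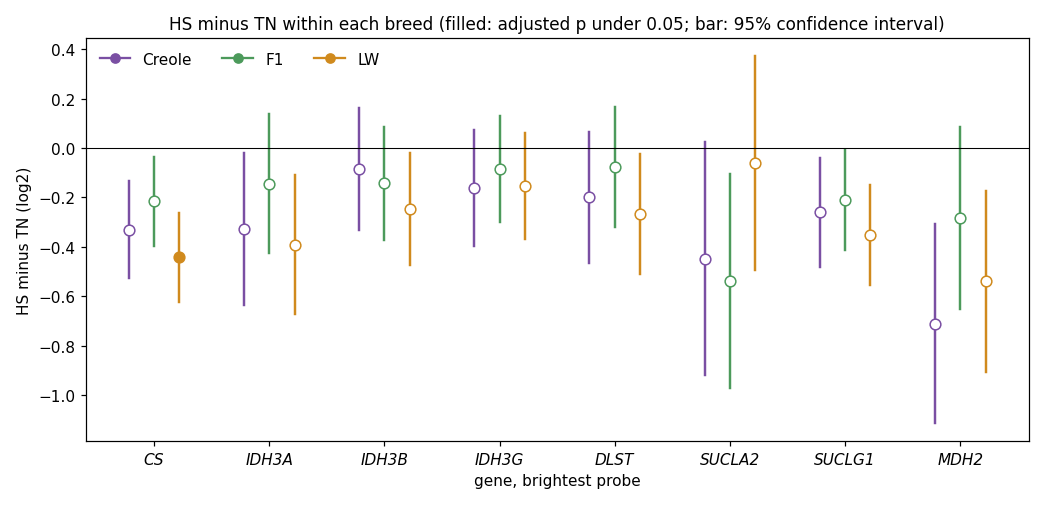
HS minus TN difference (log2, y axis) of the brightest probe of each gene (x axis) within Creole, F1 and LW, with 95% confidence intervals. CS in LW is the only filled point (adjusted p under 0.05), all 24 points lie under zero, and the intervals of the breeds overlap for each gene.

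The 5 slides each held both temperatures, so the change could be read within slides. Breeds were unevenly spread over them, so these differences mix breed with temperature: on 1 slide both TN arrays were LW and both HS arrays were Creole or F1. The block fit keeps breed in the model. The HS minus TN difference of the arrays of 1 slide was negative on all 5 slides for 7 genes, from -0.61 to -0.042 for CS and from -0.76 to -0.31 for MDH2. SUCLA2 was negative on 4 of the 5 slides. With slide as a block in the fit, 4 of the 8 genes were called as before, but CS in LW no longer was.

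Levels also differed by breed. With temperature in the model, CS was 0.33 lower on the log2 scale in LW than in Creole (LW minus Creole -0.33, SE 0.065, adjusted p = 0.0020), and all 8 of its probes were called, from -0.30 to -0.48. SUCLG1 was lower in LW as well (-0.22, SE 0.070, adjusted p = 0.033, and -0.37 with adjusted p = 0.022 for its second, dim probe, or -0.24 with adjusted p = 0.031 without Creole TN replicate 1). Of all probes, 7.43% were called lower in LW and 6.89% higher. By the brightest probe 2 of the 8 genes were called, and of the 31 probes 16 were called lower and none higher. The SUCLG1 call was lost without any of 9 single arrays (Creole HS replicates 1 to 4, Creole TN replicates 1 and 2 and LW HS replicates 2 to 4), down to -0.20 with adjusted p = 0.067. Without Creole HS replicate 5, 4 genes were called, DLST (-0.27) and MDH2 (-0.29) being the added ones. SUCLG1 was also not called with slide as a block (-0.21, adjusted p = 0.061), with the muscle score (-0.18, 0.11), the keratinocyte score (-0.21, 0.056) or the fibroblast score (-0.15, 0.32) as a covariate, or without the 6 arrays of high keratinocyte score (-0.17, 0.27). With the fibroblast score the CS difference was -0.26 (adjusted p = 0.057). The adipocyte score (mean of the centred markers) ran from 0.0057 to 0.44 in Creole and from -0.23 to 0.042 in LW. The fibroblast score ran from -0.90 to 0.25 in Creole and from -0.13 to 0.58 in LW. What part these cells have in the breed difference was not tested.

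CS levels ran from 15.31 to 15.87 (median 15.49) in the 8 Creole arrays, from 15.12 to 15.75 (median 15.40) in the 9 F1 arrays and from 14.96 to 15.54 (median 15.17) in the 9 LW arrays. Creole stood highest and LW lowest, with F1 between them. F1 minus the mean of both parent breeds was 0.026 for CS (SE 0.055, adjusted p = 0.92), and none of the 8 genes differed from that mean (smallest adjusted p = 0.77 in limma, and 0 with an unadjusted p under 0.05). Over all probes 3 did (0.00671%).

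Probes of the same gene did not always give the same breed difference. For IDH3A, the 2 bright probes gave LW minus Creole differences of 0.053 and 0.086 (adjusted p = 0.77 and 0.59), as did the TBC1D2B-labelled probe (0.058, adjusted p = 0.74). The 4 other IDH3A probes gave -0.29 to -0.37, of which 2 were called. For SUCLA2, the brightest probe gave -0.0059 (adjusted p = 0.98) and the other -0.35 (adjusted p = 0.086). The within-array difference of these 2 SUCLA2 probes was 4.74 ± 0.14 in LW (SD, n = 9) and 4.40 ± 0.12 in Creole (SD, n = 8), a description only, since the pair was picked for it. It ran from 4.499 to 4.93 in LW and from 4.16 to 4.500 in Creole, so the breeds met at their edges. For IDH3B the brightest probe gave -0.18 (adjusted p = 0.12) and the 3 others were called, from -0.28 to -0.34. MDH2 gave -0.16 (adjusted p = 0.45), IDH3G -0.061 (adjusted p = 0.63) and DLST -0.22 (adjusted p = 0.080), with 1 of the 3 DLST probes called.

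**Figure D4:**
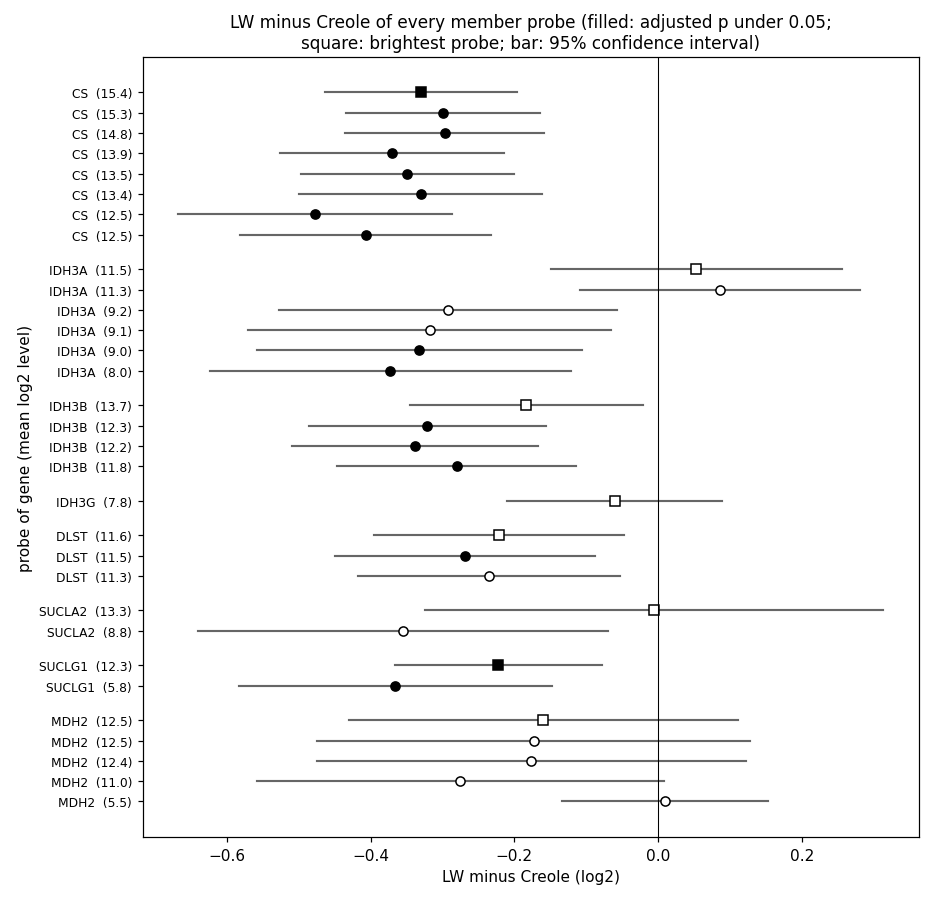
LW minus Creole difference (log2, x axis) of each of the 31 member probes with its 95% confidence interval, ordered within a gene by mean level (given in brackets, y axis). Filled symbols have an adjusted p under 0.05 and squares mark the brightest probe. The 8 CS probes are all filled on the left, and the 2 bright IDH3A probes lie right of zero while the other 4 lie left of it.

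Related genes were described by lists, each gene by its brightest tested probe, with counts and medians only. Of 9 other genes of the cycle, 7 were tested, all had negative estimates (median -0.23) and 3 were called lower. The count called was 5 with scaling to the 75th percentile or with the mean of all probes of a gene. It was 1 with no breed term or with the fibroblast score as a covariate. DLD, the dihydrolipoamide dehydrogenase shared by the 2-oxo acid dehydrogenases, fell by 0.41 (adjusted p = 0.0076). SDHA and SDHB, the flavoprotein and iron-sulfur subunits of succinate dehydrogenase, fell by 0.24 (adjusted p = 0.017) and 0.23 (adjusted p = 0.0021).

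Among 7 isoenzymes that act beside the cycle, 2 were called lower (median -0.15). ME1, the cytosolic malic enzyme that makes NADPH, fell by 1.30 (SE 0.247, adjusted p = 0.0014), and IDH1, the cytosolic NADP-dependent isocitrate dehydrogenase, fell by 0.37 (adjusted p = 0.0083). IDH1 was read by 1 tested probe only, at a low level (mean 6.54 in TN and 6.19 in HS). Of 21 genes for the entry and exit of carbon, 19 were tested and 7 called lower (median -0.20), a count that dropped to 3 without LW TN replicate 2 and to 4 without F1 TN replicate 3. They included PDHB and DLAT, subunits of pyruvate dehydrogenase, which fell by 0.76 (adjusted p = 0.011) and 0.52 (adjusted p = 0.035). SLC25A1, the carrier that exports citrate, fell by 0.63 (adjusted p = 0.029), PC, pyruvate carboxylase, by 0.16 (adjusted p = 0.0077) and GOT2, the mitochondrial aspartate aminotransferase, by 0.28 (adjusted p = 0.023). ACLY, which splits exported citrate, gave -0.82 with a wide error (SE 0.297, adjusted p = 0.072).

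Of 18 genes of the outer membrane and of protein import into mitochondria, 14 were tested and 6 called lower (median -0.13), among them VDAC1, a channel of the outer membrane, by 0.34 (adjusted p = 0.0042) and TIMM17A, a subunit of the inner membrane translocase, by 0.41 (adjusted p = 0.0078). The others called were VDAC2 (-0.26, adjusted p = 0.0098), TIMM44 (-0.29, adjusted p = 0.046), TOMM40 (-0.23, adjusted p = 0.017) and TIMM17B (-0.18, adjusted p = 0.021). TOMM40 (mean 5.69 in TN and 5.46 in HS) and TIMM44 (7.97 and 7.70) were each read by 1 tested probe at a low level. No gene of these 4 lists was called higher. With the red blood cell score as a covariate, no gene of these 4 lists was called. With the fibroblast score, none of the outer membrane and import list was called either.

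**Figure D5:**
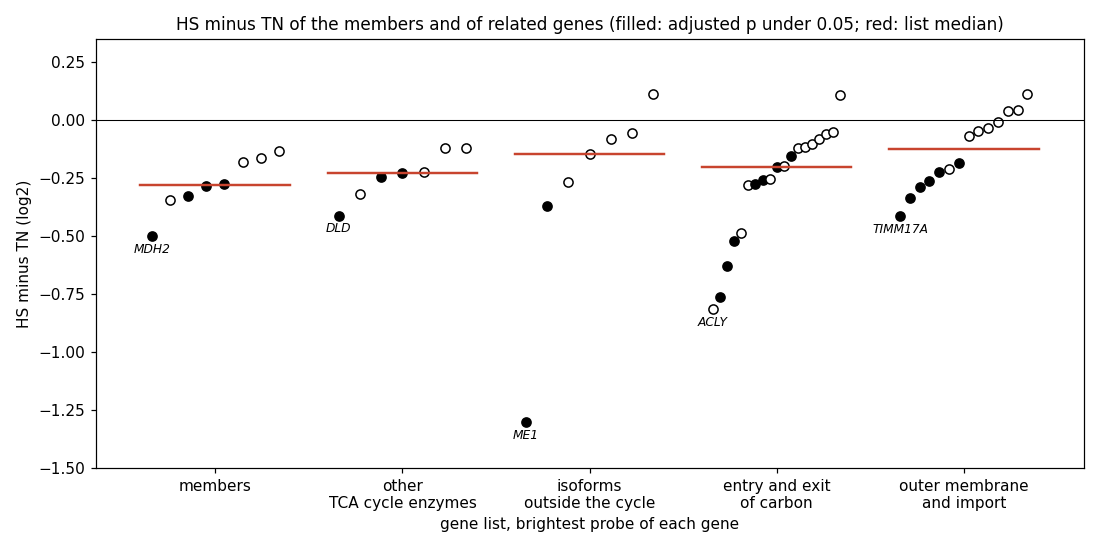
HS minus TN difference (log2, y axis) of the 8 members and of the tested genes of 4 related lists (x axis), each gene by its brightest probe, with the list median in red and filled symbols for an adjusted p under 0.05. The list medians run from -0.13 to -0.28, and the lowest gene of each list is named, ME1 at -1.30 being the lowest shown.

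Markers of other cell types also moved with temperature. Of 5 tested red blood cell markers, 2 were lower in HS, HBB, the beta chain of haemoglobin, by 0.85 (adjusted p = 0.011) and EPB42 by 0.38 (adjusted p = 0.029). The other markers were not called and split in direction, with AHSP at -0.47 (adjusted p = 0.052), SLC4A1 at 0.058 (adjusted p = 0.71) and ALAS2 at 0.043 (adjusted p = 0.88). Without F1 TN replicate 1, Creole TN replicate 2 or LW TN replicate 3, only 1 of the 2 was called. The mean score of these 5 markers, centred on all arrays, ran from -0.028 to 0.57 in TN and from -0.49 to 0.37 in HS, and their summed intensity from 5594 to 7351 in TN and from 4758 to 8317 in HS. With this score as a covariate, none of the 8 genes was called, CS giving -0.24 (adjusted p = 0.055), MDH2 -0.42 (adjusted p = 0.13) and SUCLG1 -0.19 (adjusted p = 0.16). All 8 estimates stayed negative.

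Of 8 fibroblast markers, 4 were higher in HS, all of them for collagens or decorin, from 0.25 for COL3A1 to 0.42 for COL1A2, and their summed intensity ran from 317334 to 797566 in TN and from 534866 to 946661 in HS. Without F1 TN replicate 1 or Creole TN replicate 2, 2 of these markers were called. None was called when arrays were scaled to the 75th percentile, with no breed term, with the red blood cell or keratinocyte score as a covariate, or without the 6 arrays of high keratinocyte score. With the fibroblast score as a covariate, 1 of the 8 genes was called, CS at -0.27 (adjusted p = 0.011), and MDH2 gave -0.40 (adjusted p = 0.063). The covariate fits of this kind adjust the estimate for a score that moves with temperature itself, so what part these cells have in the result was not tested. CIDEA, a brown fat and lipid droplet gene, fell by 0.43 (adjusted p = 0.00023). The 2 other brown fat genes tested were not called and differed in direction, DIO2 giving 0.25 (adjusted p = 0.075) and PPARGC1A -0.13 (adjusted p = 0.33).

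The markers of skeletal muscle (9 of 11 tested, median 0.56) and of keratinocytes (4 of 9 tested, median 0.87, KRT1 not well above background) gave no call but varied widely between arrays. Summed muscle intensity ran from 26907 to 124831 in TN and from 29636 to 392591 in HS, and summed keratinocyte intensity from 425 to 9891 and from 378 to 24882. The keratinocyte score was above 1 on 6 arrays, 5 of them HS. Without these 6 arrays, 2652 probes were called in place of 5452, and 4 of the 8 member genes. With the keratinocyte score as a covariate 3 were, IDH3A giving -0.26 (adjusted p = 0.057). Of 5 Schwann cell markers tested, 2 were called higher in HS, among them PMP22 by 0.40 (adjusted p = 0.00061). CDH5, of 7 endothelial markers, fell by 0.23 (adjusted p = 0.025), a call lost without Creole TN replicate 1 or 3. No macrophage (8) or T cell (5) marker was called, except for 1 macrophage marker without F1 HS replicate 2.

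The members varied together to unequal degrees. After the 6 group means were subtracted, the 28 pairs of genes had a median r of 0.30 over 26 arrays, from -0.0071 to 0.85, the highest being DLST with MDH2. SUCLA2 followed the others least, with a median r of 0.099. These r are descriptions, since the points share arrays and their normalization. Of 10148 other named genes, the 5 most like the mean of the 8 members by this measure were ATP5A1 (r = 0.92), GAPDH (0.87), ATP5B (0.86), CYC1 (0.85) and CHCHD10 (0.85), against a median of 0.0041. Of these, ATP5A1 and ATP5B, subunits of ATP synthase, fell by 0.34 (adjusted p = 0.018) and 0.32 (adjusted p = 0.012), and CYC1, cytochrome c1, by 0.39 (adjusted p = 0.016). GAPDH, a glycolytic enzyme, gave -0.075 (adjusted p = 0.47) and CHCHD10 -0.043 (adjusted p = 0.83).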

How the data were processed

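SCAT from 26 pigs was measured on 26 one-colour arrays. The authors deposited the scanner output, which gives median pixel intensity, mean intensity, local background and processed intensity per spot, as Agilent Feature Extraction 10.10.1.1 wrote them, with its flags and with no scaling between arrays. The table of log2 values deposited by the authors was used as an alternative. Per the study's methods these values were quantile-normalized before the log2 transformation (the rule by which probes were kept is not given in the sources used here). No columns of the authors' own comparisons were used.

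Median intensities were quantile-normalized, put on the log2 scale and fitted with limma 3.58.1 in R 4.3.3 (lmFit, eBayes with trend). Non-uniform spots were set missing after normalization, and a probe was tested if 8 or more arrays had it well above background. Breed and temperature were fixed effects, or the 6 group means for contrasts within breeds and their interaction. P-values were adjusted by Benjamini-Hochberg over all tested probes (threshold 0.05). Between 41313 and 46184 probes per array were well above background, and no spot was saturated. The scripts were tested on simulated data.

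A level is the log2 normalized intensity of a probe, and levels of different genes were not ranked against each other. Within-array differences between 2 probes were used only to compare groups of arrays. Of the 60305 probes, 35815 could not be tied to 1 gene name and 10 matched several. Each gene is given by its tested probe with the highest mean level, the other probes by counts and ranges. From related lists, genes past the threshold or with the largest change are named, up to 6 per list, and the 5 genes most like the members were named by their correlation. The members and lists were chosen with earlier results of these data known. The labels give no replicate numbers, so replicates were numbered in accession order. Alternatives covered scaling, background, the deposited table, filters, model terms, array weights, cell type scores and leaving out each array. Values of some genes and probes are not reported here.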

Additional observations from a re-analysis of the deposited data

Results flagged for a closer look

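In 40 group and gene combinations of 4 or 5 arrays, 4 held an array farther from its group than Dixon's 95% limit allows, where chance alone flags about 1 in 20. CS in LW HS had 15.17 in replicate 2 against 14.96 to 15.02 in the others. MDH2 and SUCLG1 in Creole HS both stood low in replicate 5, at 11.50 against 12.34 to 12.66 and at 12.06 against 12.37 to 12.45. SUCLA2 in F1 HS had 13.92 in replicate 3 against 12.85 to 13.16.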

How the results depend on the processing

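All 329 changes of single member genes from TN to HS under the alternatives were negative, as in the values reported. CS, MDH2, SUCLG1 and IDH3A remained called in every fit that left out 1 array. For IDH3A this holds for the bright probe that overlaps the TBC1D2B-labelled one. By the IDH3A probe that shares no sequence with it, IDH3A was not called in the fit to all arrays (-0.20, adjusted p = 0.16). Scaling to the 75th percentile of the processed signal gave 7 of the 8 member genes called from TN to HS, 4 called between LW and Creole, and 5 of the other TCA cycle enzymes. Of all 44703 probes, this scaling gave 3881 called lower and 2407 called higher from TN to HS. Without a breed term, 3531 probes were called, with 1 other TCA cycle enzyme and 2 genes of carbon entry and exit. With slide as a block, no member was called in LW and 1 between LW and Creole, and with array weights 2 were called in LW. With the red blood cell score as a covariate, 528 probes and 2 member probes were called, but 0 member genes, 0 genes of each of the 4 related lists and 0 in LW. The mean of all probes of a gene gave 5 of the other TCA cycle enzymes and 6 of the 8 members from TN to HS, with IDH3B (-0.19, adjusted p = 0.047) and SUCLA2 (-0.38, adjusted p = 0.038) added, and it added IDH3B between LW and Creole (-0.28, adjusted p = 0.018). With the 75th percentile, IDH3A minus IDH3G was -0.24 and IDH3B minus IDH3G -0.15 (both adjusted p = 0.079), both by the IDH3G probe placed on the opposite strand. Calls among adipocyte, red blood cell and endothelial markers (1, 2 and 1) fell to 0 with the red blood cell or fibroblast score and without the 6 arrays of high keratinocyte score. The red blood cell score is made from the red blood cell markers themselves, so the loss of their calls with it says nothing further.

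The following alternatives were chosen after seeing the data. With the skeletal muscle score as a covariate, 3 members were called in LW and 1 between LW and Creole. With the keratinocyte score, 3 members from TN to HS (IDH3A lost), 3 genes of carbon entry and exit and 1 member between LW and Creole were called. With the fibroblast score, 1691 probes, 8 member probes and 1 member gene were called, with 1 other TCA cycle enzyme, 1 isoenzyme, 2 genes of carbon entry and exit, 0 of the outer membrane and import, and 0 members between LW and Creole. Without the 6 arrays of high keratinocyte score, 2652 probes were called, with 1 isoenzyme, 2 genes of carbon entry and exit, 3 of the outer membrane and import, 0 members in LW and 1 between LW and Creole. Apart from the leave-out fits, which remove arrays, the cause of these shifts was not tested.

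The sign of LW minus Creole turned only for small or split differences. IDH3A gave -0.0047 with the 75th percentile, -0.20 as the mean of its probes and -0.29 by the probe that shares no sequence with TBC1D2B. SUCLA2 gave 0.0015 with normexp, 0.0077 with the red blood cell score, 0.077 with the muscle score, 0.032 with the keratinocyte score, 0.051 with the fibroblast score and 0.099 without the 6 arrays, where IDH3G gave 0.014.

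Leaving out 1 array at a time gave 3971 to 6566 probes and 4 to 5 member genes called from TN to HS, with DLST added without F1 HS replicate 4 (-0.21), IDH3B without Creole HS replicate 2 (-0.19) or F1 TN replicate 4 (-0.19), and SUCLA2 without F1 HS replicate 3 (-0.40), LW HS replicate 5 (-0.38) or Creole HS replicate 4 (-0.38). Genes of carbon entry and exit numbered 3 to 9. Members called in LW numbered 0 to 3, with 0 without LW TN replicate 2, 2 without LW HS replicate 5 or F1 HS replicate 2, and 3 without Creole HS replicate 5. Members called between LW and Creole numbered 1 to 4. SUCLG1 was the one lost, without Creole HS replicates 1 to 4, Creole TN replicates 1 and 2 or LW HS replicates 2 to 4 (-0.20 to -0.22), and 4 were called without Creole HS replicate 5. LW minus Creole ran from -0.0012 to 0.10 for IDH3A and from -0.072 to 0.061 for SUCLA2. No paired analysis was possible, because each animal was sampled at 1 temperature only and the labels do not give the litters.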
